A study of Mus musculus with 4 samples.

Results

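A set of 9 genes of the DNA damage checkpoint, Atm, Atr, Chek1, Chek2, Mdc1, Topbp1, Brca1, Trp53bp1 and H2afx, was followed through the H3K36me3 regions of mouse spermatocytes. They were taken by name, and they are 9 of the 22367 protein-coding genes annotated on the mm9 assembly in GENCODE vM1. For each gene, the share of its annotated span inside the merged broad regions, the place where the broad region began and ended, and the refined peaks inside the span were read in each of 2 strains. The B6 strain is C57BL/6J, and KI is B6.Cg-Prdm9<tm1.1Kpgn>/Kpgn, the same background carrying a knocked-in Prdm9 zinc-finger array of the CAST type. PRDM9 is the histone methyltransferase that places meiotic recombination hotspots, and its zinc fingers choose the DNA it binds. The chromatin came from germ cells labelled as spermatocytes from males 14 days post-partum in both strains, and the labels give 15 days for the input chromatin. In each strain 2 immunoprecipitated libraries had been merged before peaks were called, so each strain is 1 list, no value carries a replicate error and no difference between strains could be tested. The lists hold positions with no read numbers, so the depth behind a single region is unknown.

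H3K36me3 is laid down along the bodies of transcribed genes by SETD2, which travels with elongating RNA polymerase II, and it is usually sparse at promoters. PRDM9 adds the same mark, with H3K4me3, on nucleosomes beside its binding sites in early meiotic prophase. The checkpoint genes serve the breaks that follow. ATM and ATR are the apical kinases that sense broken and single-stranded DNA, CHK1 and CHK2 carry their signal, H2AX is the histone variant that ATM and ATR phosphorylate, and MDC1, TOPBP1, BRCA1 and 53BP1 assemble on the damaged chromatin. In pachytene spermatocytes ATR, TOPBP1, BRCA1 and MDC1 act with phosphorylated H2AX on the unsynapsed axes and chromatin of the X and Y.

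The letters below are mm9 reference sequence, read 5′ to 3′ on the strand of the gene, with every CG dinucleotide in capitals. The first set is upstream of the annotated 5′ end. H2afx, at chr9:44142548-44142797 on the plus strand, is shown because its promoter was the one inside a broad region in both strains. Trp53bp1, at chr2:121097144-121097393 on the minus strand, is shown because it alone had a refined peak within 1 kb of the 5′ end. Brca1, at chr11:101413270-101413462 on the minus strand, and Topbp1, at chr9:103207413-103207544 on the plus strand, were added after their values were seen. Their promoters are shared with an oppositely transcribed neighbour, and a broad region stopped on each side. They are cut short where the first transcribed bases of that neighbour begin.
H2afx promoter: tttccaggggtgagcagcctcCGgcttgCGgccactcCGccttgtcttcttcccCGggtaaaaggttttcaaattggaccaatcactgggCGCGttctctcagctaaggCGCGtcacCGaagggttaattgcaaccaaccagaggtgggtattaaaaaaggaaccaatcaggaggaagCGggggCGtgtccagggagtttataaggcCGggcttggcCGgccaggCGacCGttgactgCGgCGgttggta
Trp53bp1 promoter: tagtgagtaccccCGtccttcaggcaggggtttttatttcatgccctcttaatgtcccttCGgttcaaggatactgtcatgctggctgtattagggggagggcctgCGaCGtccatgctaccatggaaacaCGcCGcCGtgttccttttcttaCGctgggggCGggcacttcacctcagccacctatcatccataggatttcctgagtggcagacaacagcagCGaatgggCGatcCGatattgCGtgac
Brca1 promoter: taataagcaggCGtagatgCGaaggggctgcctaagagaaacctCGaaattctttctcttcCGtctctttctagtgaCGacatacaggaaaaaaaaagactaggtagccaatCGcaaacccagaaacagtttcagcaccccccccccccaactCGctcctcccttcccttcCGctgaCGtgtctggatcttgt
Topbp1 promoter: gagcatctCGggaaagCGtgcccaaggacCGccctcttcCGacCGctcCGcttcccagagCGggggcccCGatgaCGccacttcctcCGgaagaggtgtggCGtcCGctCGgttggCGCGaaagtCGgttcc
These stretches hold 17, 13, 9 and 16 CG dinucleotides, in that order. Over the 250 bases before the 5′ end, the 9 genes held 8 (Chek1) to 29 (Topbp1) with a median of 16.0, against a median of 8 in 22362 promoters of the same length. Those promoters include unmarked genes, and the median over marked genes alone was not computed. The dinucleotide was searched as CG, which reads the same on both strands, and 92.5% of all promoters hold at least 1. By rank, 7.41% of promoters hold as many as that of Topbp1, 10.7% as many as that of Atm and 52.5% as many as that of Chek1.

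The second set comes from inside the genes. Chek1, at chr9:36517923-36518045 on the minus strand, and Trp53bp1, at chr2:121095046-121095345 on the minus strand, are from the refined peaks whose positions overlapped between strains. The Chek1 run is the 123 bases of a 205-bp peak that are not untranslated, and the Trp53bp1 run is the middle 300 bases of a 448-bp peak. The Chek2 runs, all on the plus strand, are the single refined peak of B6 in intron 2, at chr5:111274564-111274844, and 2 of the 5 of KI, in intron 4 at chr5:111278257-111278488 and intron 13 at chr5:111299342-111299580. They were chosen after their values were seen, because Chek2 had the most refined peaks of the 9 genes.
Chek1 refined peak of both strains: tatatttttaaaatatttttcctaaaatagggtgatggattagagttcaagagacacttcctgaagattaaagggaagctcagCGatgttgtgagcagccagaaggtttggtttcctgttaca
Trp53bp1 refined peak of both strains: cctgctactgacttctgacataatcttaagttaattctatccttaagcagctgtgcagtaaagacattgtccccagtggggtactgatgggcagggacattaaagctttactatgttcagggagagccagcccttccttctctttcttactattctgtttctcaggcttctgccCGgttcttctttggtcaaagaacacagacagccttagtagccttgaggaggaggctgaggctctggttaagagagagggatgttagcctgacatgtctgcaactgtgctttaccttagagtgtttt
Chek2 refined peak of B6, intron 2: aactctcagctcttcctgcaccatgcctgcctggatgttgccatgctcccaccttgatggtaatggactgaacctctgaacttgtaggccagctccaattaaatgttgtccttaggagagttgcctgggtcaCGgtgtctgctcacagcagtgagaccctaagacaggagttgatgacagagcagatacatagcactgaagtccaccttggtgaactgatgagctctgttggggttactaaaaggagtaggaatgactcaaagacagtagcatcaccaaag
Chek2 refined peak of KI, intron 4: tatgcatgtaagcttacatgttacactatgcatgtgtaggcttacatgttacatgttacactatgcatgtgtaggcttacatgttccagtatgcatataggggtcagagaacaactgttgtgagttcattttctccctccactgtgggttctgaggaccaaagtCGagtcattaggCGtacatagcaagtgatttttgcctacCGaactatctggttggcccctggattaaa
Chek2 refined peak of KI, intron 13: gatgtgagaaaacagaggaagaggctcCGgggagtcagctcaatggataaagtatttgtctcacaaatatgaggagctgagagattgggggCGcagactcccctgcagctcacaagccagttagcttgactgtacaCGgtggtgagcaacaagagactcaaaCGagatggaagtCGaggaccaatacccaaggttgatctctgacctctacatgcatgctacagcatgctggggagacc
These runs hold 1, 1, 1, 3 and 5 CG dinucleotides. Per 100 bp the refined peaks in the 9 genes had a median of 0.781 CG in B6 and 1.10 in KI, against 0.703 and 0.719 in all refined peaks and 6.40 in the promoters of the 9 genes.

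All 9 checkpoint genes lay almost wholly inside broad H3K36me3 regions in both strains. Every gene was covered over at least 50% of its span in B6 and in KI, where 43.0% and 41.2% of all protein-coding genes were. The lowest coverage was 93.8% in B6 and 88.4% in KI, both of Chek1, and the median was 99.1% in B6 and 99.0% in KI. Summed over 450 kb of gene, 99.0% was covered in B6 and 98.7% in KI. Genes of 10 kb or more had a median coverage of 58.1% in B6 and 48.5% in KI. Coverage of 90% or more was reached by all 9 genes in B6 and by 8 in KI, and by 34.9% and 30.5% of the genes of at least 10 kb, the class to which 8 of the 9 belong. In chromatin of a whole preparation, a mark carried by more of the cells and a denser mark in each cell cannot be told apart. On chromosome 9 lie 5 of the genes (Atm, Atr, Chek1, Topbp1 and H2afx).

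**Figure D1:**
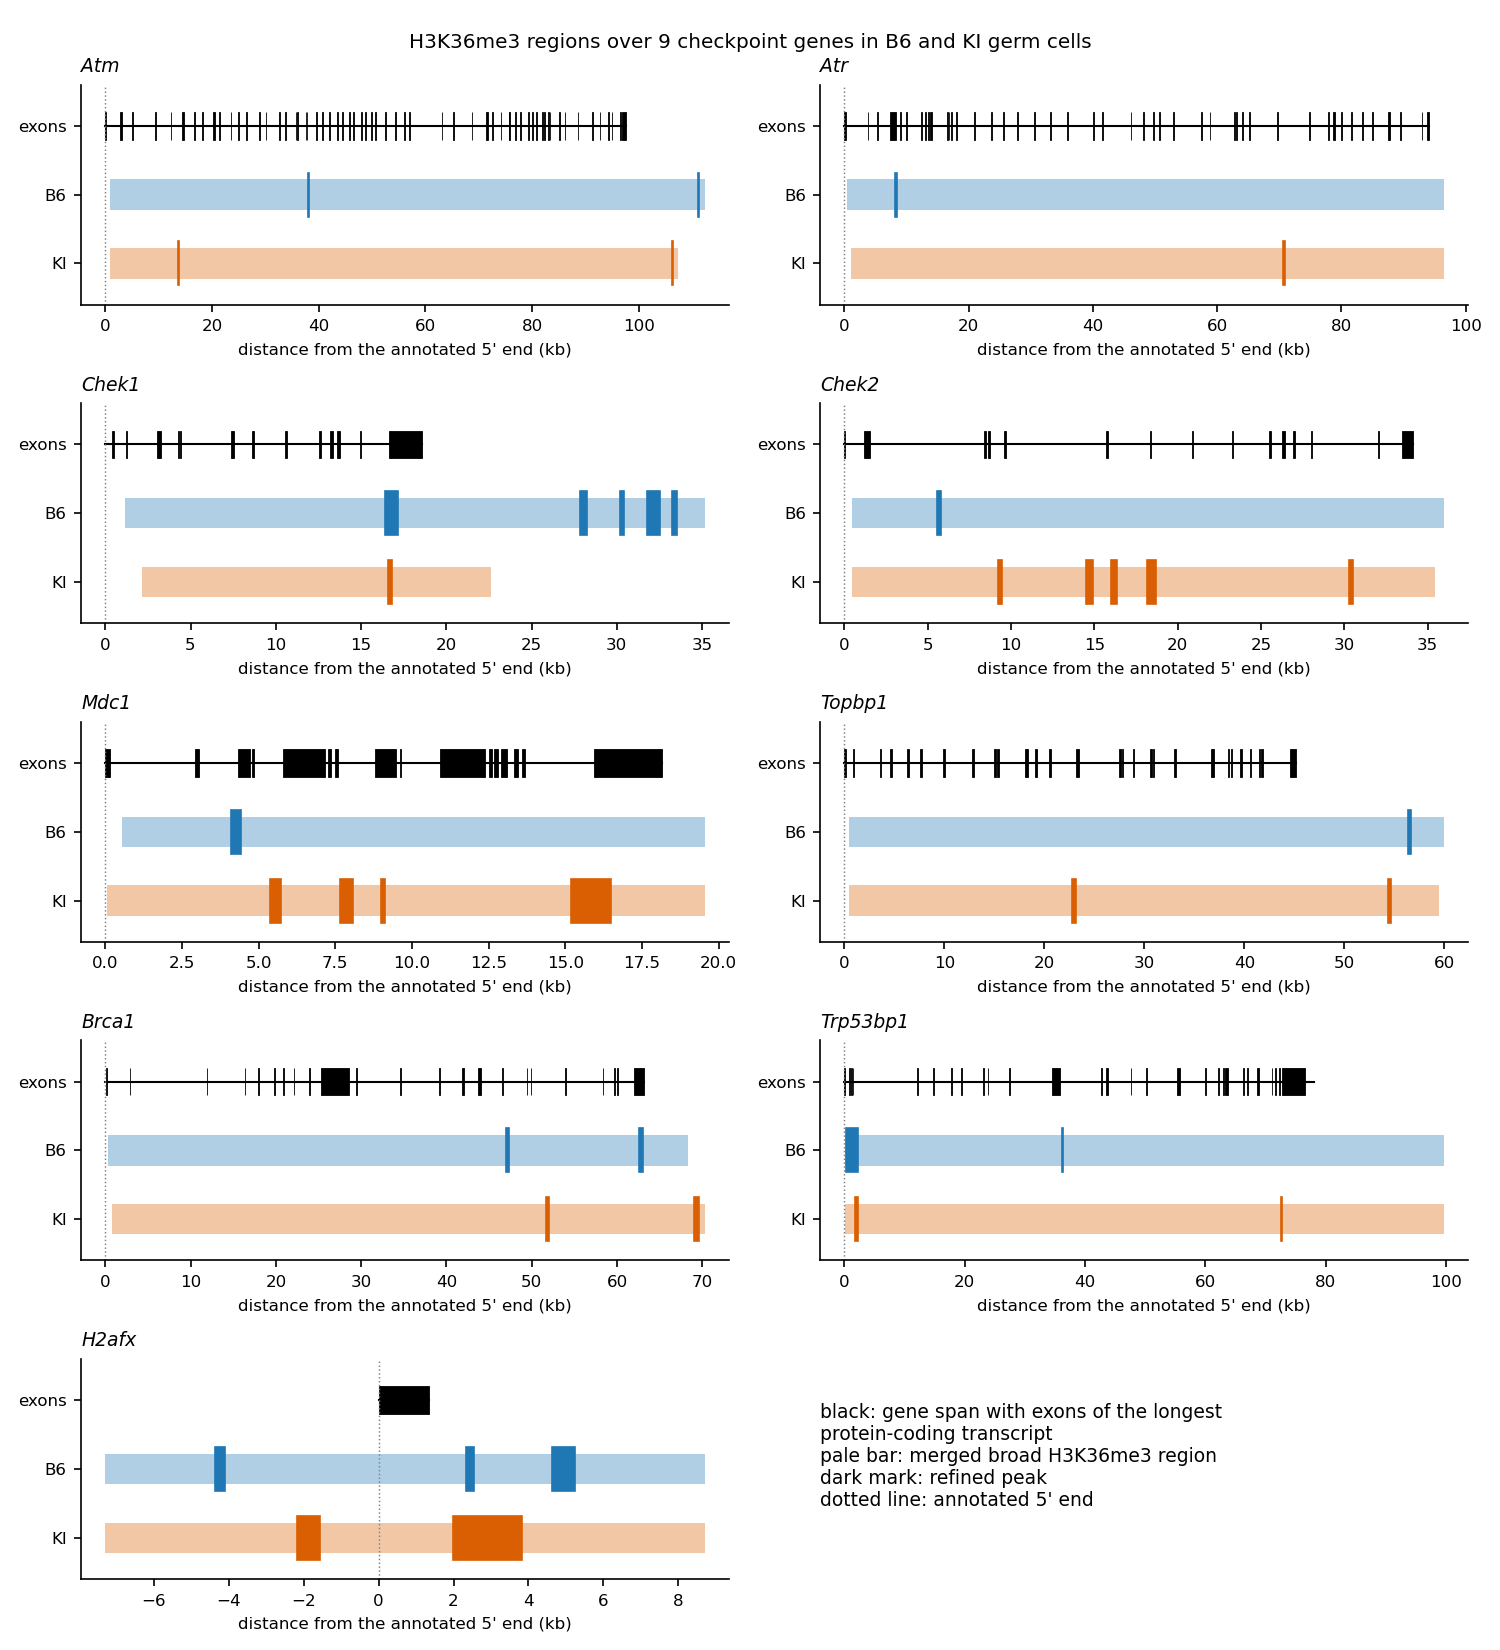
Maps of the 9 checkpoint genes, each drawn 5′ to 3′ with distance from the annotated 5′ end in kb on the horizontal axis. Black marks are exons, pale bars the merged broad H3K36me3 region of B6 (blue) and KI (orange), and dark marks refined peaks. In 8 genes the pale bars begin just inside the gene and run past its 3′ end, and over H2afx they begin 7297 bp before it.

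The broad region over each gene was 1 unbroken interval in both strains. Among marked genes of 10 to 100 kb, 71.2% in B6 and 63.9% in KI lay under a single interval. The bases left uncovered were at the 5′ end. In 8 of the 9 genes the region began inside the gene, 143 to 1150 bp (median 475 bp) from the 5′ end in B6 and 41 to 2150 bp (median 617 bp) in KI. In B6 all 8 began in intron 1. In KI, Mdc1 began in exon 1 and Chek1 in intron 2. The edges lie on a 500-bp grid, a step longer than these first exons, so exon 1 and intron 1 cannot be resolved. Marked genes of 10 to 100 kb had a median start 1237 bp inside the gene in B6, with quartiles at 677 and 4052 bp. In KI it was 1415 bp, with quartiles at 718 and 6956 bp. Of the 8 genes, 6 in B6 and 4 in KI began before the lower quartile. Their regions ran unbroken past the 3′ end, so this distance equals the uncovered length and restates the coverage. The compared class also includes genes under several intervals. H2afx was the exception to a start inside the gene, with its 5′ end under the region. Such a covered 5′ end was found in 5.99% (B6) and 5.78% (KI) of marked genes of at least 10 kb, and in 40.4% and 40.6% of marked genes under 5 kb, the class of H2afx.

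**Figure D2:**
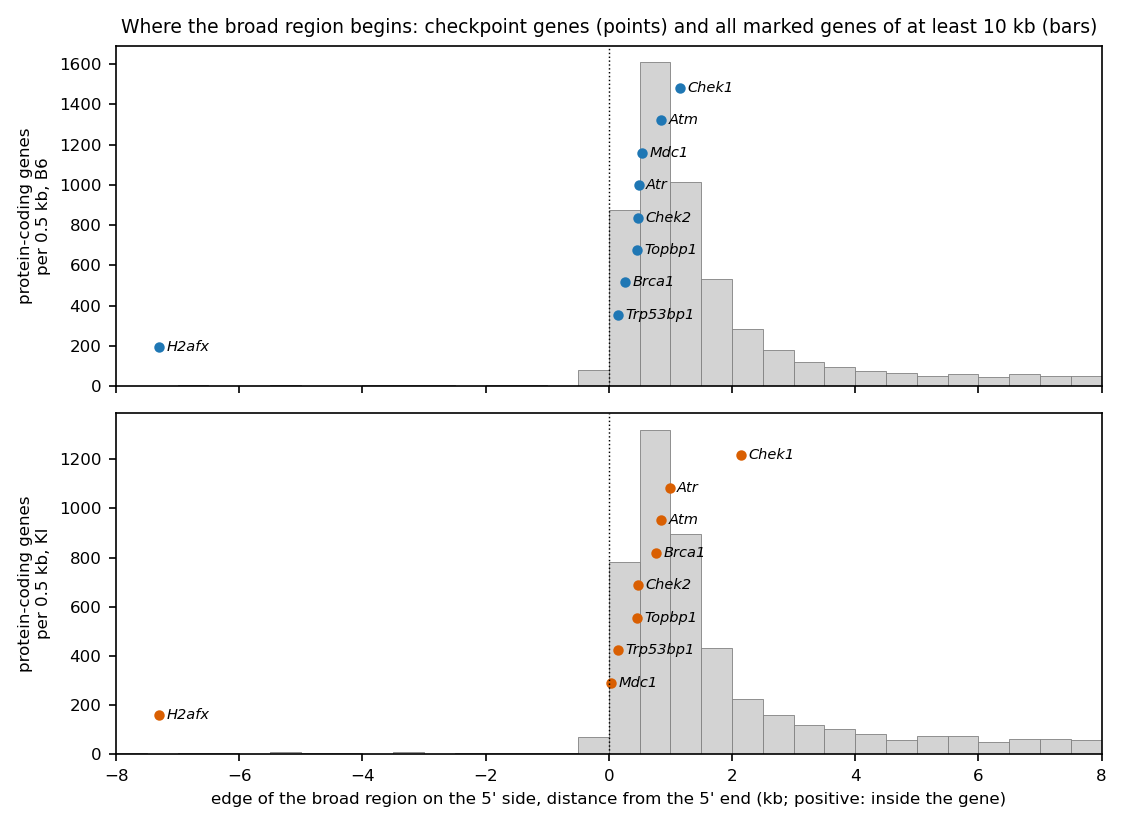
Distance in kb from the 5′ end to the near edge of the broad region (horizontal axis) for the 9 genes (points, spread vertically for legibility) and number of marked genes of at least 10 kb per 0.5-kb bin (grey bars, vertical axis), in B6 above and KI below. The other points sit between 0 and 2150 bp inside the gene, where the bars are tall or beside them, and H2afx sits 7297 bp upstream.

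Atm encodes the kinase that responds first to double-strand breaks. It spans 97.6 kb at chr9:53247254-53344845 on the minus strand, with 64 exons. Coverage was 99.1% in both strains, and the region began in intron 1, 845 bp from the 5′ end, in each. A gap of 1500 bp separated it from the region over Npat, a gene of histone transcription that starts 307 bp away on the other strand and was itself covered to 99.1% in both strains. Past the 3′ end the region went on for 14.8 kb in B6 and 9.75 kb in KI, into 4930550C14Rik, which was covered to 30.6% and 46.9%. The 5′ boundary of Atm was thus at the same position of the 500-bp grid in both strains and its far boundary was not. With regions that only touch kept apart, the region ended 14.8 kb past the gene in B6 and 7.25 kb in KI.

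Each strain had 1 refined peak in Atm. The B6 peak was in intron 22 (chr9:53306602-53306834), 38.1 kb from the 5′ end. The KI peak was in intron 6 (chr9:53330967-53331291), 13.7 kb from it. They were 24.1 kb apart.

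Atr encodes the kinase recruited to single-stranded DNA coated with RPA. It spans 94.0 kb at chr9:95758016-95852063 on the plus strand, with 47 exons, with a coverage of 99.5% in B6 and 99.0% in KI. The region began 485 bp inside the gene in B6 and 985 bp in KI, a difference of 1 step of the 500-bp grid on which the broad regions are laid. In both strains it ended 2.44 kb past the gene. Atr and Atm, nearly equal in length, had the same single refined peak per strain. In Atr the B6 peak overlapped exon 4 (chr9:95766087-95766500) and the KI peak was in intron 35 (chr9:95828565-95828934), 62.1 kb away. The annotated U1 and Gm16794 also lie in this region.

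Chek1, which encodes the effector kinase downstream of ATR, differed most between strains in coverage and in the edges of its region. It spans 18.6 kb at chr9:36516067-36534650 on the minus strand, with a coverage of 93.8% in B6 and 88.4% in KI, 5.38 percentage points lower. The region began 1150 bp inside the gene in B6 and 2150 bp in KI, the farthest of the 9 genes in each strain. The longest protein-coding transcript begins 407 bp inside the annotated span, and from that start the distances are 743 and 1743 bp. Beyond the 3′ end the B6 region ran 16.6 kb, over Acrv1, a gene of the sperm acrosome, and the KI region 4.07 kb. The mark covered 100% of Acrv1 in B6 and 21.3% of it in KI. The B6 interval was built from 4 deposited regions, 3 of them 2 to 4 kb long, and with regions that only touch kept apart it ended 9.07 kb past Chek1.

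The refined peak of Chek1 was in the last exon in both strains. In B6 it was 777 bp long (chr9:36517498-36518274) and in KI 205 bp (chr9:36517841-36518045), lying wholly inside that of B6. It took in the same 93 coding bases in both, and the printed Chek1 run holds them. This was 1 of the 2 places in the 9 genes where the strains had overlapping refined peaks.

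Chek2 encodes the effector kinase downstream of ATM, which removes oocytes with unrepaired breaks. It spans 34.1 kb at chr5:111269036-111303152 on the plus strand, and its coverage of 98.6% and its near edge, in intron 1 at 465 bp from the 5′ end, were equal in B6 and KI. The region ended 1.85 kb past the gene in B6 and 1.35 kb in KI. Hscb starts 240 bp upstream on the other strand, was covered to 78.6% in both strains, and a gap of 3000 bp lay between both regions. The outline of the mark over Chek2 therefore differed by 1 grid step in all.

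The refined peaks inside that outline were 1 in B6 and 5 in KI. The B6 peak was in intron 2. The KI peaks were in introns 4, 5, 6 and 13 and over exon 7, and the nearest of them was 3.41 kb from the B6 peak. Fully marked genes of 20 to 50 kb under a single region (coverage of 90% or more) averaged 1.23 such peaks in B6 and 1.51 in KI, and 2.91% of them held 5 or more in KI. Among all marked genes of that length, which include genes under several separate regions, 16.2% did. The KI interval was assembled from 4 deposited broad regions, and that of B6 was 1.

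Mdc1 encodes the mediator that binds phosphorylated H2AX. It spans 18.2 kb at chr17:35978460-35996615 on the plus strand, with 16 exons. Coverage was 97.0% in B6 and 99.8% in KI, 2.75 points higher, and the near edge was in intron 1, 541 bp from the 5′ end, in B6 and in exon 1, 41 bp from it, in KI. Those near edges were 1 grid step apart. The far edge was the same, 1.39 kb past the gene, where it touched 5530401N12Rik. Tubb5, a β-tubulin gene, starts 3209 bp upstream and was covered to 71.4% in both strains. Mdc1 was the single gene of the 9 in which coverage was higher in KI.

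Mdc1 had 1 refined peak in B6, over exon 3 (chr17:35982565-35982870), and 4 in KI. The KI peaks lay in introns 4 and 7, in exon 8, and over exon 16, the last of these 1307 bp long (chr17:35993651-35994957). None overlapped the B6 peak, and the nearest was 972 bp away. Of the fully marked single-region genes of 10 to 20 kb in KI, 1.09% held 4 or more refined peaks, and of all marked genes of that length 4.48% did. Joining refined peaks up to 1000 bp apart makes 1 of the peaks in intron 7 and exon 8. The 16 KI peaks of the 9 genes then become 15. The shares were not computed for joined peaks. In contrast to Chek2, all 4 of these KI peaks belonged to 1 deposited broad region.

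Topbp1 encodes the scaffold that activates ATR. It spans 45.2 kb at chr9:103207545-103252762 on the plus strand, with 28 exons, and was covered to 99.0% in both strains, from a base in intron 1 that is 456 bp from the 5′ end. Its promoter, printed above, is shared with 1300017J02Rik, which starts 133 bp away and had 33.0% of its span covered in B6 and 47.9% in KI. A gap of 1000 bp to the nearest region upstream was the shortest at the 5′ end of any of the 9 genes. The largest region over 1300017J02Rik began 7912 bp inside that gene in B6 and 412 bp inside it in KI. The region ran 14.7 kb (B6) and 14.2 kb (KI) past the gene, through Cdv3, which was covered to 95.2% and 91.2%. Topbp1 held no refined peak in B6 and 1 in KI, in intron 13 (chr9:103230330-103230703). The single refined peak of the B6 region, and the other one of KI, were in Cdv3. Among fully marked single-region genes of 20 to 50 kb in B6, 6.37% had no refined peak.

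Brca1 encodes the ubiquitin ligase that acts in homologous repair and along unsynapsed axes. It spans 63.2 kb at chr11:101350078-101413269 on the minus strand, with 23 exons, with a coverage of 99.6% in B6 and 98.8% in KI. The region began 269 bp inside the gene in B6 and 769 bp in KI. Upstream, Nbr1, an autophagy receptor gene, starts 194 bp away and was covered to 96.5% and 94.8%, so the unmarked gap over the shared promoter was 1500 bp in B6 and 2500 bp in KI. At the 3′ side the KI region was the longer, 7.08 kb against 5.08 kb, although with touching regions kept apart it ended 4.58 kb past the gene.

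Brca1 was the single gene with more refined peaks in B6 than in KI. The B6 peaks were in the untranslated part of exon 23 (chr11:101350179-101350673) and in intron 16 (chr11:101365984-101366239). The KI peak was in intron 18 (chr11:101361275-101361574), 4.41 kb from the nearest of B6.

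Trp53bp1 encodes 53BP1, which limits the resection of broken ends. It spans 78.1 kb at chr2:121019017-121097143 on the minus strand, with 28 exons. Its broad region had the same edges on the 500-bp grid in both strains, and the coverage was 99.8%. The region ran from 143 bp past the 5′ end, in intron 1, to 21.5 kb past the 3′ end. The far part ran through Tubgcp4, a γ-tubulin complex gene that overlaps Trp53bp1 on the opposite strand and was covered to 96.4% in both strains, so the mark there cannot be told apart between the 2 genes.

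Trp53bp1 had 2 refined peaks in each strain. In B6 the peak of 2045 bp at chr2:121094908-121096952 began 191 bp from the 5′ end and took in exons 2 to 4, and the other was in intron 12. In KI a peak of 448 bp in intron 4 (chr2:121094972-121095419) lay inside the long B6 peak, and the other was in intron 27, where Tubgcp4 also lies. This was the second of the shared places, and the long B6 peak was the widest refined peak in the 9 genes.

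H2afx, the H2AX gene, differs from the rest in size, with 1 exon of 1357 bp at chr9:44142798-44144154 on the plus strand. It was covered to 100% in both strains by a region of 16.0 kb, identical in B6 and KI, that began 7297 bp upstream and ended 7346 bp downstream. The region ran through Dpagt1, a gene of protein glycosylation, which was covered to 91.5% in both strains. In each strain it was made of 2 deposited regions that meet inside H2afx, between bases 44143000 and 44143001, so with touching regions kept apart the gene lay under 2 regions. How much of the mark over H2afx belongs to its own transcription and how much to its neighbours was not tested.

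No refined peak fell in H2afx in either strain. Among fully marked genes under 5 kb in a single region, 55.6% in B6 and 50.3% in KI had none. Around it the 16.0-kb region had 3 refined peaks of B6 and 2 of KI.

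Past the 3′ end of the 9 genes the broad regions went on for 1385 to 21516 bp in B6 (median 7346 bp) and 1348 to 21516 bp in KI (median 7077 bp). With regions that only touch kept apart, the median stayed at 7346 bp in B6 and was 4577 bp in KI, where the regions of Atm and Brca1 then ended sooner. For marked genes of 10 to 100 kb the median was 3153 bp in B6 and 2792 bp in KI, a class that includes genes under several regions. The B6 median of 7346 bp is the value of H2afx, whose class of marked genes under 5 kb had medians of 4172 bp in B6 and 3405 bp in KI. The regions that went on for over 10 kb entered a neighbouring gene, as described for Atm, Chek1, Topbp1 and Trp53bp1 in B6, and for Topbp1 and Trp53bp1, the 2 such genes, in KI. With touching regions kept apart, that of Chek1 in B6 ended 9.07 kb past the gene, short of Acrv1.

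Between strains, the near edge of the regions changed little in all but Chek1. With touching regions joined, the far edge moved by more than 1 grid step in Atm, Chek1 and Brca1. With such regions kept apart, that of Brca1 lay 5077 bp past the gene in B6 and 4577 bp in KI. The near edge was identical in 5 genes (Atm, Chek2, Topbp1, Trp53bp1 and H2afx) and within 1 grid step of 500 bp in 8, all but Chek1. The far edge was identical in 4 (Atr, Mdc1, Trp53bp1 and H2afx) and within 1 step in 6. Over the 8919 genes marked in both strains, 43.0% had an identical near edge and 32.6% an identical far edge, so for 9 genes the identical edges were near the background. The share of all genes with edges within 1 step was not computed. Coverage was equal in 5 genes, a count for which no share over all genes was computed, and no gene differed by 10 percentage points. Of 9933 genes marked in either strain 21.3% did, but these include genes marked in 1 strain only, and 9 genes are few for this comparison. With 1 list a strain, it cannot be told whether the difference of Chek1 exceeds the spread between preparations.

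The refined peaks, the short summits that ZINBA picks inside a broad region, were mostly at other places in the other strain, in the checkpoint genes as over the whole lists. There were 9 of them in the checkpoint genes of B6, spread over 7 genes, and 16 in those of KI, spread over 8. At least 1 refined peak was found in 94.4% (B6) and 95.1% (KI) of marked genes of 10 to 100 kb. Only 2 of the 9 (22.2%, Wilson 95% interval 6.32 to 54.7%) overlapped a refined peak of KI, and 2 of the 16 (12.5%, 3.50 to 36%) one of B6. The intervals cover counting error only and take the peaks as independent, and both shares rest on the same 2 pairs of peaks. Over the whole lists 17.6% of the B6 peaks and 14.2% of the KI peaks overlapped one of the other strain, and in fully marked single-region genes of 10 to 100 kb 17.0% and 12.0% did, so the shares in the checkpoint genes were near the background. Since almost the whole of each gene was covered in both strains, the refined peaks in it also lay inside a broad region of the other strain. KI had more refined peaks in Chek2, Mdc1 and Topbp1, B6 in Brca1, and the other 5 genes had as many in both, none in the case of H2afx. Over the whole lists KI also had more, 72692 against 58502, and the study's methods give more aligned reads for KI.

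By length, the density over the 9 genes was 20 refined peaks per Mb of gene for B6 and 35.5 for KI. Because the density falls with gene length, it was read within length classes against fully marked single-region genes. The 4 genes of 50 to 100 kb (Atm, Atr, Brca1 and Trp53bp1), 333 kb of the sum, had 18.0 in B6 and 15.0 in KI, against 23.5 and 33.2. Chek2 and Topbp1, of 20 to 50 kb, had 12.6 and 75.6, against 38.5 and 47.8. Chek1 and Mdc1, of 10 to 20 kb, had 54.4 and 136, against 71.3 and 75. These densities rest on 1 to 6 peaks each. A single peak, as in Atm and Atr, is a common count, held by 61.2% of such genes of 50 to 100 kb in B6 and 47.1% in KI, where the means were 1.60 and 2.22 per gene. The B6 peaks were 226 to 2045 bp wide (median 306 bp) and the KI peaks 101 to 1307 bp (median 358 bp). An exon of the longest protein-coding transcript was overlapped by 5 of the 9 B6 peaks and 4 of the 16 KI peaks, the others being intronic in it. Exons made up 12.0% of the bases of the spans. That share of bases is no background for peaks, since wide peaks meet an exon more often. The share of all refined peaks that overlap an exon was not computed.

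**Figure D3:**
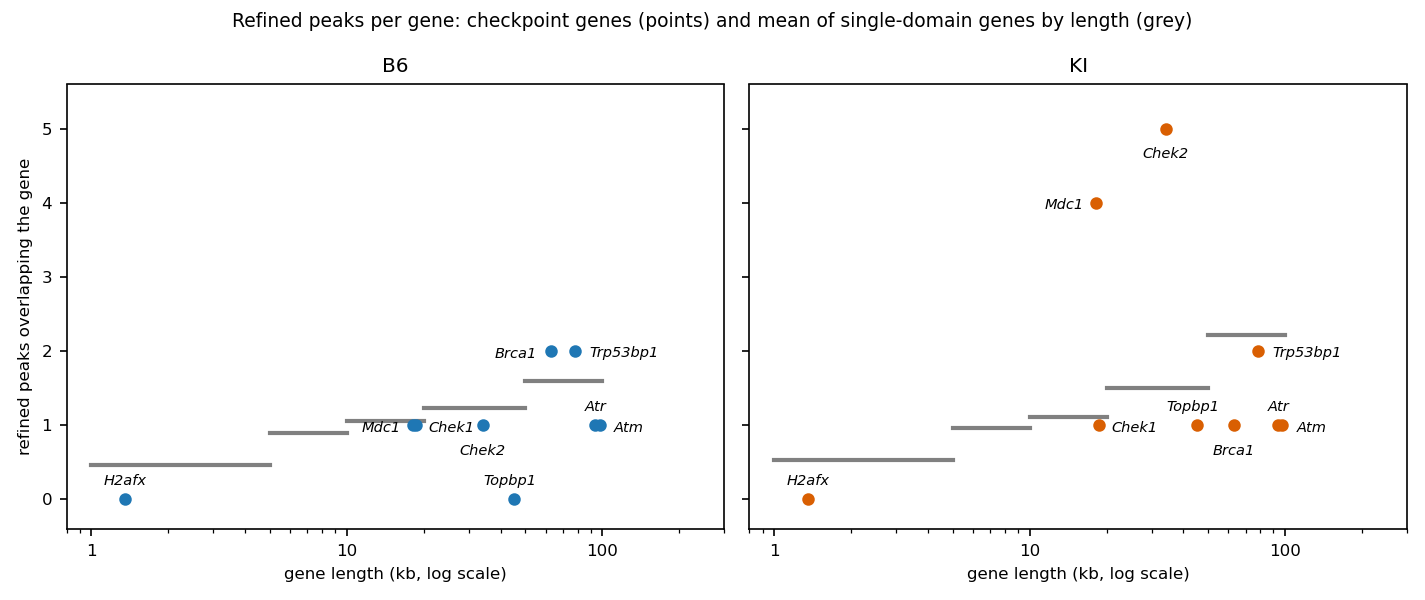
Number of refined peaks per gene (vertical axis) against gene length in kb (horizontal log axis) for the 9 genes in B6 (left, blue) and KI (right, orange). Grey lines are the mean of fully marked genes under a single broad region in each length class. In KI, Chek2 with 5 and Mdc1 with 4 stand above the line of their class, and Atm and Atr have 1, the commonest count of their class, in both strains.

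Other genes of the pathway were read from a list of 41 in 6 roles, all matched in the annotation. Of these, 39 were covered to at least 50% in both strains, with medians of 96.3% in B6 and 95.4% in KI. Of all 22367 protein-coding genes, 8919 were covered to at least 50% in both strains. The 3 genes of the MRN complex, which binds broken ends and brings in ATM, were marked, from Nbn at 93.0% (B6) and 90.1% (KI) up to Rad50 at 99.4% in B6 and Mre11a at 99.2% in KI. So were all 6 genes of the 9-1-1 clamp and its loader, through which TOPBP1 reaches ATR. There Hus1b was lowest at 89.2% in both strains, and Rad9b was highest in B6 (99.2%) and Rad17 in KI (98.5%). All 8 genes of ATR activation and RPA were marked, from the small RPA subunit Rpa3 at 79.2% to Clspn, the CHK1 adaptor, at 99.1%, each equal in both strains.

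All 12 genes of the ubiquitin and mediator group were marked as well. Rnf8, the ligase that acts after MDC1, was lowest in B6 at 91.8% (89.5% in KI), and Paxip1 was highest there at 99.3% (98.3% in KI). In KI the highest was Rif1, the partner of 53BP1, at 98.7%, and the lowest was Bre, a BRCA1-A complex gene of 387 kb, covered to 92.8% in B6 and 60.6% in KI. Among the 8 effectors, Mdm2 (98.6% in both strains) was highest in B6 and Ppm1d in KI (99.3%), and Trp53, which encodes p53, was covered to 90.1% in both.

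Only 2 of the 41 genes lay under 50%. Cdkn1a, the p53 target that encodes the p21 inhibitor, was at 0% in B6 and 20.5% in KI. Trp63, the p53 relative that guards oocytes, was at 1.68% and 2.16%. The other 3 genes of meiotic surveillance were marked, with Hormad1, an axis protein that recruits ATR to unsynapsed chromosomes, at 100% in both strains, Hormad2 at 99.4% and 98.8%, and Trip13, the ATPase that removes both, at 99.2% and 97.2%.

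**Figure D4:**
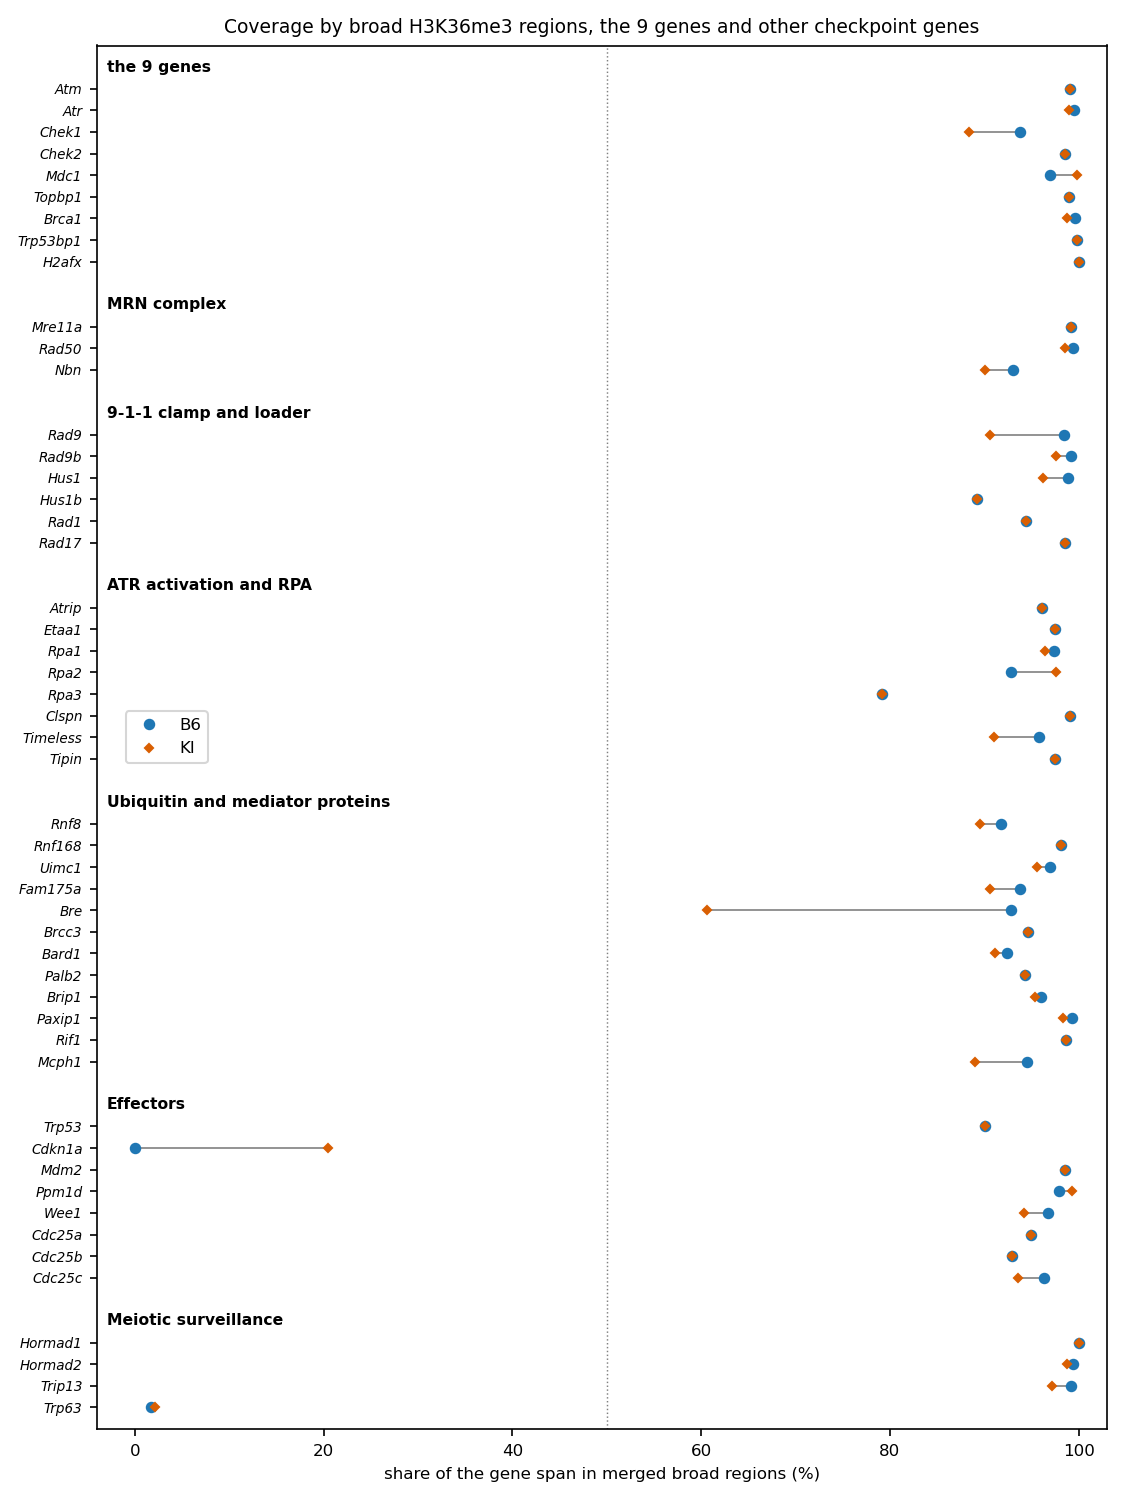
Share of each gene's span inside merged broad regions (horizontal axis, %) for the 9 genes and the 41 other checkpoint genes by role, in B6 (blue circles) and KI (orange diamonds), with a dotted line at 50%. Nearly all points stand to the right at 79.2% or more. The exceptions are Cdkn1a at 0 and 20.5%, Trp63 at 1.68% and 2.16%, and Bre in KI at 60.6%.

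The labelled cell type was checked against marker genes. All 8 spermatocyte markers matched (Sycp1, Sycp2, Sycp3, Dmc1, Spo11, Tex11, Ddx4 and Dazl) were covered to 82.4 to 100% in both strains, with medians of 98.2% in B6 and 97.8% in KI. The 4 Sertoli markers matched were higher in B6, with Wt1 at 71.7% against 8.49% in KI, Sox9 at 45.2% against 0%, Amh at 42.0% against 0.333% and Gata4 at 19.6% against 8.25%. Of the 5 Leydig markers, Star was at 100% in both strains, Cyp11a1 at 0% and 1.51%, and the other 3 at 0%. The regions over Star and Amh began upstream of the gene in both strains, as over H2afx. How much of that coverage belongs to neighbouring genes was not tested. None of 4 genes of other tissues reached 50%, with Myh6 highest at 24.0% in B6. The part of the Sertoli difference in the values of the 9 genes was not tested.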

How the data were processed

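H3K36me3 chromatin immunoprecipitation and sequencing was done on spermatocytes of B6 and KI mice, with 1 input library a strain. Per the study's methods, the authors aligned reads of 100 bp to mm9 with BWA, merged 2 replicates a strain, and called regions with ZINBA 2.0.2.03. Its methods give a window of 1000 bp. The processing notes in the labels list BWA 1.2.3. The labels name the antibody target as H3K36me6, which is read here as H3K36me3 from the sample titles. The deposited values are start and end positions in base pairs of broad (unrefined) and refined regions, with no count, score or p-value. Each refined line has 1 broad line, and 58502 lines in B6 gave 54458 distinct broad regions, and 72692 in KI gave 66566. Regions that overlapped or touched were joined, giving 39620 intervals of 445.9 Mb and 48863 of 425.4 Mb. Genes were GENCODE vM1 spans of 22367 protein-coding genes, and exons those of the longest protein-coding transcript. A gene was called marked at a coverage of 50% or more, and refined peaks were called shared at an overlap of 1 bp. Coverage of the 9 genes was checked with bedtools 2.31.1, and the scripts (Python 3.11.15, numpy 2.4.6, scipy 1.17.1, matplotlib 3.10.9) were tested on simulated data. Sequences were read from the mm9 genome.

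The genes, the pathway list and the markers were chosen with earlier results of these data known. All 9 genes are named, with the genes that overlap their broad region and the neighbours that start beside them. One overlapping gene is not reported here. Of the pathway list, the genes under 50% in either strain and the highest and lowest of each role are named, with a few others chosen after their values were seen. The markers Meiob and Rhox5 had no match and were not used here. Alternatives were other limits, gene spans, joins and overlaps.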

Additional observations from a re-analysis of the deposited data

How the results depend on the processing

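No paired analysis was possible because replicates were merged before the regions were called, and for the same reason no replicate could be left out. Of 39 alternative values for 15 results, 33 stayed within the range set for them and 6 moved. Some of the 33 could not move, since a lower limit of 25% or a joining of regions can only keep all 9 genes covered. Within the range in KI were 8 rather than 9 genes at a limit of 90%. So were 15 rather than 16 refined peaks with those up to 1000 bp apart joined. Without the first 1000 bp of each span, the covered share of the 9 genes was 100% (99.0% with them) in B6 and 99.7% (98.7%) in KI, since the uncovered bases are at the 5′ end. When an overlap with any broad region of the other strain was enough, 9 refined peaks of B6 and 16 of KI were shared, rather than 2 of each. At a limit of 5 percentage points, 1 gene (Chek1) rather than 0 differed between strains. With regions that only touch kept apart, an alternative chosen after seeing the data, 8 rather than 9 genes lay under a single region in each strain, edges moved in 2 genes of B6 and 3 of KI, and the median end past the 3′ end in KI was 4577 rather than 7077 bp. The lists carry no depth, but the study's methods give more aligned reads for KI than for B6, the strain with fewer refined peaks, and the part of depth in that difference was not tested.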
